A study of Mus musculus with 17 samples.

Results

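The machinery that releases neurotransmitter from synaptic vesicles was followed in mouse hippocampus as 49 genes, given by a list of symbols. Each symbol matched 1 of the 38355 Ensembl identifiers in the count files, and all 49 were expressed highly enough to be tested at both ages. The list was set by function and not by measured values, although results of these data were known when it was drawn up. The 17 libraries came from hand-dissected hippocampus of untreated wild type C57BL/6J mice, as polyA RNA, and no mouse carried an engineered allele or received an agent. Of the single-end libraries, 5 were from mice aged 3 months (3M) and 6 from mice aged 24 months (24M), and of the paired-end libraries, 3 were from mice aged 3 months and 3 from mice aged 29 months (29M). Each aged group was compared with the 3M mice sequenced the same way, so age and library type cannot be told apart between the 24M and 29M comparisons. The labels used here do not give the sex of the mice.

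Vesicles are filled with glutamate by transporters in their membrane, tethered by synapsins, and brought to the active zone by Rab3 proteins and large scaffold proteins. Munc13 and RIM proteins prime them, and the SNARE proteins synaptobrevin (on the vesicle), syntaxin and SNAP-25 (on the plasma membrane) zipper together to drive fusion when synaptotagmin binds calcium. NSF and its adaptors take the SNARE complex apart afterwards, and dynamin and clathrin adaptors retrieve the membrane. Tissue RNA of whole hippocampus mixes all of its cell types, so fewer cells of a type and less RNA per cell cannot be told apart.

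Few genes of the machinery passed the test at either age. At 24M, 2 of the 49 genes were called lower, Stx1a, the syntaxin of the plasma membrane, and Rims3, a short RIM-family protein of the active zone, and 0 were called higher. Calls here need both a Benjamini-Hochberg adjusted p of 0.05 or less from edgeR's quasi-likelihood test and a log2 fold change of 0.5 or more in either direction, and by that rule 0.638% of all genes tested were lower and 1.34% higher. By adjusted p alone, 6 members were lower at 24M (Stx1a, Rims3, Syt5, Syn3, Unc13a and Doc2a) and 0 higher, beside 2.37% lower and 3.21% higher of all genes. At an unadjusted p under 0.05, 8 members were higher and 10 lower at 24M, beside 13.96% higher and 12.1% lower of all genes. DESeq2 called 0 higher, and by adjusted p alone it passed 1 higher, Napb, and 7 lower, the same 6 and Rph3a. Of the 26441 genes in that fit 933 were higher and 648 lower by adjusted p alone. At 29M, 0 members were called in either direction by edgeR or DESeq2, where 0.113% of all genes were called lower and 1.34% higher. By adjusted p alone 1 member was lower at 29M, the vesicular glutamate transporter gene Slc17a6, and 0 were higher, beside 0.662% lower and 2.32% higher of all genes. At an unadjusted p under 0.05, 2 members were higher and 6 lower at 29M, beside 9.86% higher and 7.48% lower of all genes. The test of the difference between the ages passed for 0 of 49 members (edgeR, lowest adjusted p 0.39) and for 0% of all genes.

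Promoters of the genes the calls turn on are given from RefSeq on build GRCm38.p6, each reaching from 250 bases before the annotated start to 50 bases after it. They are shown because Stx1a and Rims3 were the pair called lower together at 24M and Slc17a6 was the gene that passed at 29M. Capitals mark GC boxes (GGGCGG or its complement CCGCCC) and the short cyclic AMP response element TGACG, searched on both strands. The full element TGACGTCA, which contains the short one, and TATAAA were searched too and were found in none of the windows printed.
Stx1a, chr5:135023232-135023531, plus strand: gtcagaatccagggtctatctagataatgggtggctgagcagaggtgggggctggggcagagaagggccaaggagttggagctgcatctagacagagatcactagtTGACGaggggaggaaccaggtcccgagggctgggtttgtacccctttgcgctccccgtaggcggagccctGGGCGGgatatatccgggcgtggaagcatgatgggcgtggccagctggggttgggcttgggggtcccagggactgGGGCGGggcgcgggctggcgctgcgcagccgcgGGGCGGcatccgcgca
Rims3, chr4:120854549-120854848, plus strand: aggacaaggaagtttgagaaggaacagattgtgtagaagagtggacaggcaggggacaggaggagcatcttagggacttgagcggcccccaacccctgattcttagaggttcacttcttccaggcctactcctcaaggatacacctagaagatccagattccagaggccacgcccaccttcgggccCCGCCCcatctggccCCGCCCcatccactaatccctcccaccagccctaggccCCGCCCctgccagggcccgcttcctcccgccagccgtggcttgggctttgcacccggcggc
Slc17a6, chr7:51621580-51621879, plus strand: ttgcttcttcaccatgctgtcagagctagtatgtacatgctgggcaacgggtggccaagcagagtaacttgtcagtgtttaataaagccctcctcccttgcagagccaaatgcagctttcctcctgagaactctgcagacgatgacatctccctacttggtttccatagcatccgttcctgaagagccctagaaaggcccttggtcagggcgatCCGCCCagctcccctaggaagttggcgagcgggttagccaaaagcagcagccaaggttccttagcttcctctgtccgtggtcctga
The Stx1a window held 3 GC boxes and 1 TGACG, the Rims3 window 3 GC boxes, and the Slc17a6 window 1 GC box. A GC box was present in 35.7% of all 32851 windows of the table, TGACG in 20.8%, TGACGTCA in 1.79% and TATAAA in 13.6%. The table held 50 windows for 38 of the 49 members, of which 30 (60.0%) had a GC box. The GC content was 66.3% for Stx1a, 62.3% for Rims3 and 53.7% for Slc17a6, beside a median of 52.7% over all windows. A second window of Slc17a6 starting at base 51624387 had no GC box and 1 TGACG.

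Reads counted on genes ranged from 9213474 to 28438296 per library. Libraries labelled 24M replicates 1 and 4 differed by less than the sampling noise (mean ratio of squared difference to counting variance 0.406, against at least 1.23 in other pairs within groups), so their mean was counted as 1 sample, which leaves n = 5 at 24M. Values of single libraries are given in the order of the replicate numbers, with this mean first at 24M. Marker genes of dentate granule cells, CA1, CA2 and CA3 were above 0 in every library, and so were those of striatum and of layer 6b and neocortex. Being above 0 therefore cannot tell the labelled tissue from these. Summed neuronal markers (12 genes) were 5575 to 6097 CPM (counts scaled to the library total) at 3M and 5531 to 5753 at 24M in the single-end libraries, and 5249 to 5583 at 3M and 5015 to 5137 at 29M, without overlap, in the paired-end libraries. In 3M single-end replicate 4, 8 striatal markers summed to 483 CPM, against 149 to 168 CPM in all other libraries. Summed markers of layer 6b and neocortex (8 genes, each above 0 in every library) were 236 to 341 CPM at 3M and 185 to 216 CPM at 24M, without overlap, and 189 to 212 CPM at 3M and 188 to 211 CPM at 29M. Of these 8 markers, 2 were called lower at 24M (Lamp5 and Cux2) and 0 at 29M.

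Levels of the 49 genes spanned more than 2 orders of magnitude. Compared per length, as CPM per kilobase of exon in the 3M single-end group (n = 5), Cplx2 stood highest at 391 ± 14.5 (SD), followed by Snap25 at 339 ± 30.6. Complexins clamp and promote fusion, and SNAP-25 is a SNARE of the plasma membrane. At the low end were Syn3 at 1.12 ± 0.099, the vesicular transporter gene Slc17a8 at 1.28 ± 0.16 and Sv2c at 1.37. Paralogs differed widely in level. Among the vesicular glutamate transporters Slc17a7 reached 283 ± 29.3 CPM per kilobase, against 6.34 ± 0.63 for Slc17a6. The main calcium sensor gene Syt1 was at 221 ± 5.23, close to Syt11 at 205, and far above Syt5 at 64.6, Syt7 at 49.02 and Syt2 at 6.62. Of the Munc13 priming factors Unc13a was at 34.8, Unc13c at 3.43 and Unc13b at 2.17, and of the RIM proteins Rims1 was at 29.2, Rims3 at 16.6 and Rims2 at 6.43. Syn1 was at 205 and Syn2 at 118 on the same scale, and Vamp2, the synaptobrevin of most forebrain synapses, at 294 against 14.2 for Vamp1.

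**Figure D1:**
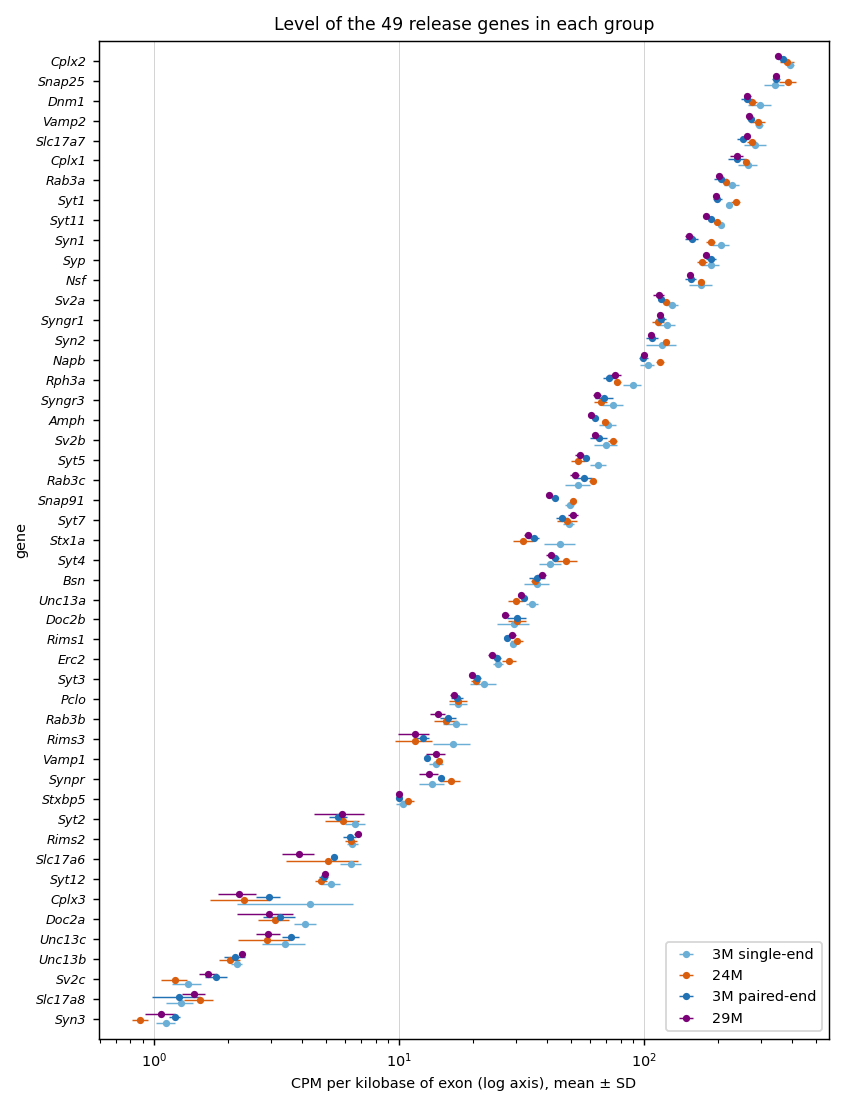
Level of each of the 49 genes as CPM per kilobase of exon on a log axis, mean ± SD per group (3M single-end n = 5, 24M n = 5 samples, 3M paired-end n = 3, 29M n = 3). The genes run from Syn3 near 1 to Cplx2 near 391 CPM per kilobase, and for most genes the 4 groups lie close together.

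Over all 49 members the 95% interval of the change lay within ±0.5 on the log2 scale for 41 at 24M and 46 at 29M. These were 83.7% and 93.9% of the members, beside 70.3% and 73.7% of all genes tested. Among genes tested with a mean of at least 5 CPM the shares were 87.4% and 91.5%. The median log2 fold change of the members was -0.05 at 24M and -0.04 at 29M, with 33 and 34 of 49 below 0, beside medians of -0.003 and -0.002 and shares of 50.8% and 50.6% below 0 for all genes. Summed microglial markers (7 genes, each above 0 in every library) were 332 to 379 CPM at 3M and 418 to 439 CPM at 24M, and 326 to 337 CPM at 3M and 414 to 430.0 CPM at 29M, higher without overlap at both ages. Summed astrocyte markers (9 genes) were 6077 to 6739 CPM at 3M and 6596 to 7092 CPM at 24M, with overlap, and 5732 to 5837 CPM at 3M and 6234 to 6270.3 CPM at 29M, without overlap. The part of these markers in the changes of the members was not tested.

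**Figure D2:**
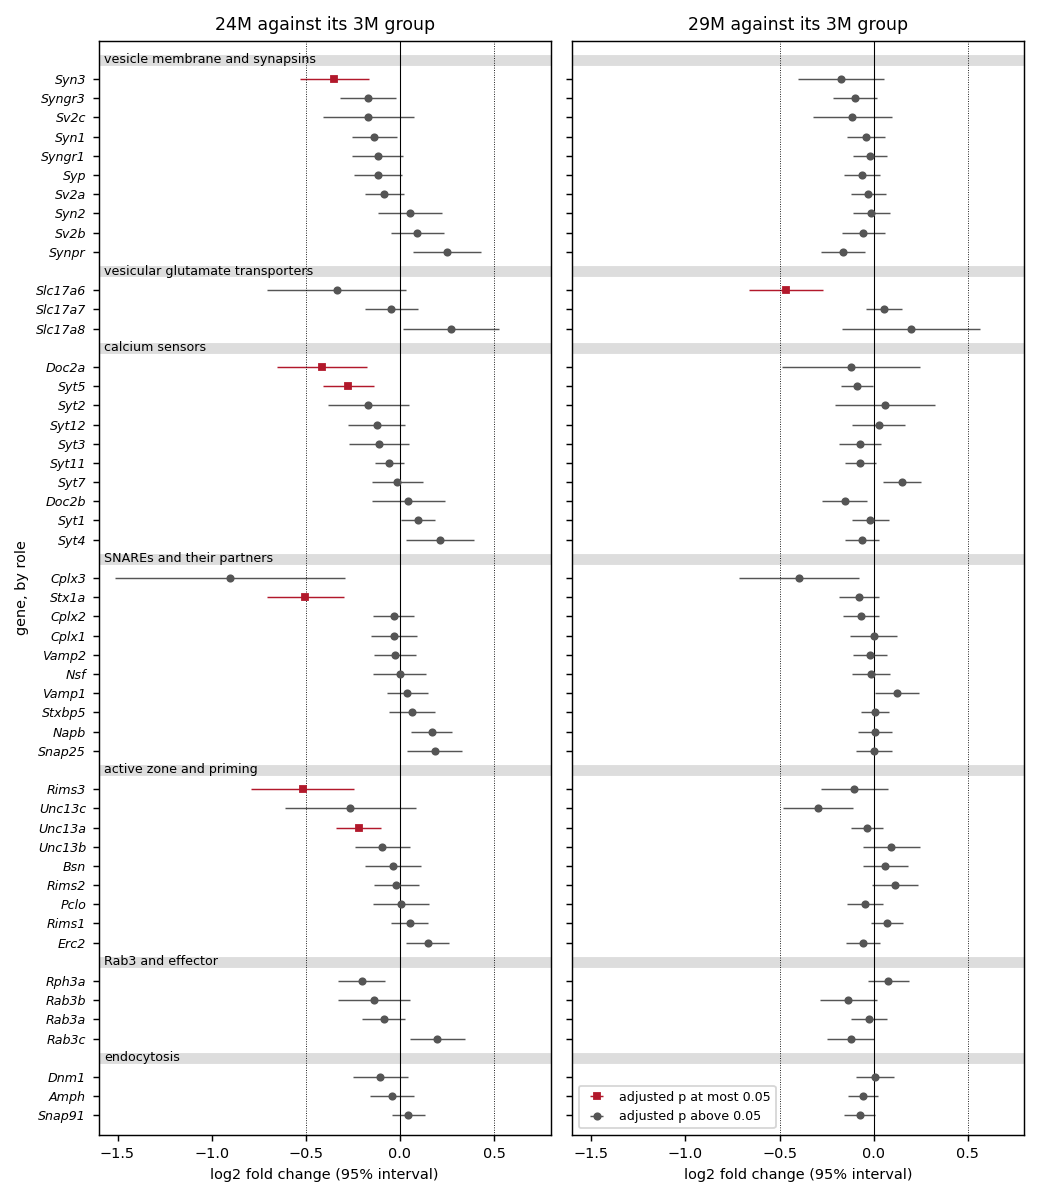
Log2 fold change of each gene with its 95% interval, at 24M (left) and 29M (right), grouped by role. Red squares passed by adjusted p, 6 at 24M and 1 at 29M, dotted lines mark ±0.5, and most intervals lie inside them.

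Among the vesicle membrane proteins and synapsins, 7 of 10 genes were below 0 at 24M and 10 of 10 at 29M, and 1 passed, Syn3 at 24M. Synapsin III is a minor synapsin of the adult brain. Syn3 (chromosome 10, 86055125 to 86498896, minus strand) measured 14.6, 15.4, 12.7, 12.7 and 13.3 CPM in the 3M single-end libraries and 11.4, 9.41, 11.03, 10.7 and 11.4 CPM in the 24M samples. Every 24M sample was below every 3M library. Its log2 fold change was -0.35 ± 0.09 (SE), with an adjusted p of 0.034 by edgeR's quasi-likelihood test, Benjamini-Hochberg adjusted. At 29M Syn3 measured 11.9, 12.2 and 15.2 CPM against 14.1, 15.1 and 15.6 CPM, so the groups overlapped, and the change was -0.18 ± 0.11 (adjusted p 0.43). Syn3 shares 1733 exonic bases with Timp3 on the opposite strand, and the sources used here do not say whether the counting used strand. The major synapsins did not pass: Syn1 was changed by -0.14 ± 0.06 and -0.04 on the log2 scale at 24M and 29M, and Syn2 by 0.05 ± 0.08 and -0.01.

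Synpr, the gene of synaptoporin, a vesicle protein related to synaptophysin, gave opposite signs at the 2 ages without passing at either. It measured 109, 128, 120, 140 and 147 CPM at 3M and 168, 162, 159, 142 and 133 CPM at 24M, a log2 fold change of 0.25 ± 0.08 with overlap between the groups. In the paired-end libraries it measured 144, 138 and 138 CPM at 3M and 137, 124 and 115 CPM at 29M, a log2 fold change of -0.16 ± 0.05 without overlap. Its adjusted p was 0.085 and 0.13 by edgeR's quasi-likelihood test, Benjamini-Hochberg adjusted, and the test of the difference gave an unadjusted p of 0.0037 and an adjusted p of 0.39. Synaptophysin itself (Syp) had log2 fold changes of -0.12 and -0.06, Sv2a of -0.08 and -0.03, and Sv2b of 0.09 and -0.05, none past the test.

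Of the 3 vesicular glutamate transporters, Slc17a7 (VGLUT1), the main one of hippocampal pyramidal and granule cells, showed log2 fold changes of -0.05 ± 0.07 and 0.05 ± 0.05 at 24M and 29M. Slc17a6 (VGLUT2), which is known from thalamic and other subcortical neurons and from the subiculum, fell at 29M. It measured 28.9, 30.3 and 28.7 CPM at 3M and 20.4, 18.5 and 24.6 CPM at 29M, so all 29M libraries lay below all 3M libraries. The log2 fold change of Slc17a6 (chromosome 7, 51622006 to 51671119, plus strand) was -0.46 ± 0.09 with an adjusted p of 0.014 by edgeR's quasi-likelihood test, Benjamini-Hochberg adjusted, short of the fold threshold. The gene passed in 4 of 6 fits with a library left out. It had an adjusted p of 0.092 without 29M replicate 1 and 0.056 without 29M replicate 2, and an adjusted p of 0.48 with all 4 groups in 1 fit. In the single-end libraries it measured 33.5, 36.1, 28.8, 37.8 and 34.9 CPM at 3M and 28.2, 27.8, 16.3, 24.3 and 41.1 CPM at 24M, a change of -0.34 ± 0.17 (adjusted p 0.24). The spread at 24M was wide, from replicate 3 at 16.3 to replicate 6 at 41.1 CPM. Summed markers of thalamus and habenula (6 genes, of which Gbx2 was at 0 in some libraries) were 43.5 to 72.1 CPM at 3M and 50.4 to 58.4 CPM at 29M, and 43.2 CPM in 24M replicate 3 and 87.4 CPM in 24M replicate 6, and their part in the result was not tested. Slc17a8 (VGLUT3) was low, at 5.32 to 7.11 CPM at 3M and 6.67 to 8.97 CPM at 24M, with changes of 0.27 ± 0.12 and 0.20 ± 0.17 at 24M and 29M (adjusted p 0.17 and 0.60).

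Of the 10 synaptotagmin and Doc2 genes, 7 were below 0 at each age, 2 passed at 24M and 0 at 29M. Syt5 codes for a synaptotagmin of vesicles. Syt5 measured 158, 150.3, 161, 165 and 135 CPM at 3M and 133, 131, 114, 134 and 126 CPM at 24M. The groups did not overlap, although the lowest 3M library and the highest 24M sample were close. Its log2 fold change was -0.27 ± 0.06 (adjusted p 0.027, edgeR's quasi-likelihood test, Benjamini-Hochberg adjusted). In the paired-end libraries Syt5 measured 135, 140.2 and 139 CPM at 3M and 124, 134 and 132 CPM at 29M, which again did not overlap, with a change of -0.09 ± 0.04 (adjusted p 0.28). Doc2a, a high-affinity calcium sensor linked to spontaneous and asynchronous release, measured 11.1, 12.9, 10.7, 12.8 and 10.5 CPM at 3M and 9.73, 8.27, 6.80, 9.90 and 8.82 CPM at 24M. All 24M samples were lower, and the change was -0.41 ± 0.11 on the log2 scale (adjusted p 0.047). Doc2a shares 39.4% of its exonic bases with Ino80e on the opposite strand, whose 218 to 631 counts per library were above the 70 counts that Doc2a had at its lowest, so its value is uncertain. Its paralog Doc2b had a change of 0.04 ± 0.09 at 24M and -0.15 ± 0.06 at 29M, where 114, 119 and 121 CPM lay below 144, 122 and 128 CPM.

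The synaptotagmin of fast release, Syt1, did not pass at either age, with log2 fold changes of 0.09 ± 0.04 and -0.02 ± 0.04 (adjusted p 0.18 and 0.88, edgeR's quasi-likelihood test, Benjamini-Hochberg adjusted). It measured 1797 to 1897 CPM at 3M and 1879 to 2082 CPM at 24M, with overlap. Syt7, a slow calcium sensor of asynchronous release and facilitation, was the only member whose 29M libraries all lay above the 3M libraries, at 401, 366 and 379.5 CPM against 354, 357 and 323 CPM. That was 1 of 49 members, beside 11.9% of all genes without overlap in this direction, and its change of 0.15 ± 0.05 had an adjusted p of 0.11. Members lower at 29M without overlap numbered 10 of 49, a larger share than the 10.5% of all genes. At 24M 5 of 49 were lower without overlap, a larger share than the 3.42% of all genes. None, 0 of 49, were higher without overlap at 24M, beside 3.15% of all genes. Of the other synaptotagmins, Syt2, Syt3, Syt4, Syt11 and Syt12 had changes of -0.17, -0.11, 0.21, -0.06 and -0.12 at 24M and 0.06, -0.07, -0.06, -0.07 and 0.03 at 29M, none past the test.

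Among the SNAREs and their partners 1 of 10 genes passed, Stx1a at 24M. Stx1a (chromosome 5, 135023482 to 135051100, plus strand) measured 122, 129, 107, 145 and 102 CPM at 3M and 89.9, 87.2, 71.1, 89.1 and 89.9 CPM at 24M. Every 24M sample lay below every 3M library, with 4 of the 5 between 87.2 and 89.9 CPM. The log2 fold change was -0.50 ± 0.09 with an adjusted p of 0.014 by edgeR's quasi-likelihood test, Benjamini-Hochberg adjusted. Stx1a passed by adjusted p in 11 of 11 fits with a library left out (highest adjusted p 0.043), with log2 fold changes from -0.57 to -0.43, and stayed at or beyond the fold threshold in 6 of them. In the paired-end libraries it measured 99.4, 89.8 and 92.9 CPM at 3M and 92.1, 85.6 and 89.0 CPM at 29M, which overlapped, with a change of -0.08 ± 0.05 (adjusted p 0.43). The difference between the ages had an unadjusted p of 0.0069 and an adjusted p of 0.39. Summed layer 6b and neocortex markers, lower at 24M as given above, were highest in 3M single-end replicate 4 (341 CPM) and lowest in 24M replicate 3 (185 CPM), the same libraries as the highest and the lowest value of Stx1a. Without both of these libraries Stx1a had a change of -0.37 and an adjusted p of 0.031. Because these libraries held its extreme values, leaving them out shrinks the change whatever the markers, so that fit cannot tell their part. The part of those markers in the result was not tested.

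Cplx3, a complexin best known from retina and deep cortex, had the lowest log2 fold change of the members at 24M. It did not pass at either age in the main test. It measured 11.05, 11.6, 8.02, 23.7 and 9.29 CPM at 3M and 7.23, 6.22, 4.02, 8.09 and 8.82 CPM at 24M, so that 3M single-end replicate 4 stood far above all other libraries, and the groups overlapped. The change was -0.90 ± 0.28 with an adjusted p of 0.072 by edgeR's quasi-likelihood test, Benjamini-Hochberg adjusted, and -0.56 with an adjusted p of 0.11 without that replicate. By adjusted p Cplx3 passed at 24M with no filter, with all 4 groups in 1 fit and with the 24M libraries kept apart. It also passed without 3M single-end replicate 5, and in no other alternative run. At 29M Cplx3 measured 5.38, 6.56 and 7.63 CPM against 9.76, 8.12 and 8.09 CPM, without overlap, a change of -0.40 ± 0.15 (adjusted p 0.19). The same layer 6b and neocortex sum was 341 CPM in 3M single-end replicate 4, did not overlap between 24M and 3M, and overlapped between 29M and 3M. The complexins of most hippocampal synapses did not pass, with changes of -0.03 at 24M for both Cplx1 and Cplx2, and -0.001 and -0.07 at 29M.

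Apart from Stx1a, the core SNAREs among the members (Snap25, Vamp2 and Vamp1) did not pass either. Snap25 measured 2076, 2338, 2105, 2481 and 2523 CPM at 3M and 2626, 2628, 2936, 2531 and 2369 CPM at 24M, a change of 0.18 ± 0.07 (adjusted p 0.11, edgeR's quasi-likelihood test, Benjamini-Hochberg adjusted), and its change at 29M was 0.003 ± 0.04. Vamp2 had changes of -0.03 and -0.02, and Vamp1, the synaptobrevin of fast-firing neurons, of 0.04 and 0.12 (adjusted p 0.64 and 0.25). Napb, the gene of beta-SNAP, which recruits NSF to used SNARE complexes, measured 693, 739, 791, 669 and 740 CPM at 3M and 828, 824, 850, 776 and 802 CPM at 24M. Only 1 of the 24M samples was below the highest 3M library, and the change was 0.17 ± 0.05 with an adjusted p of 0.063. At 29M the change of Napb was 0.01 ± 0.04. Nsf itself was at -0.002 and -0.02, and the syntaxin-binding regulator Stxbp5 (tomosyn) at 0.06 and 0.01.

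**Figure D3:**
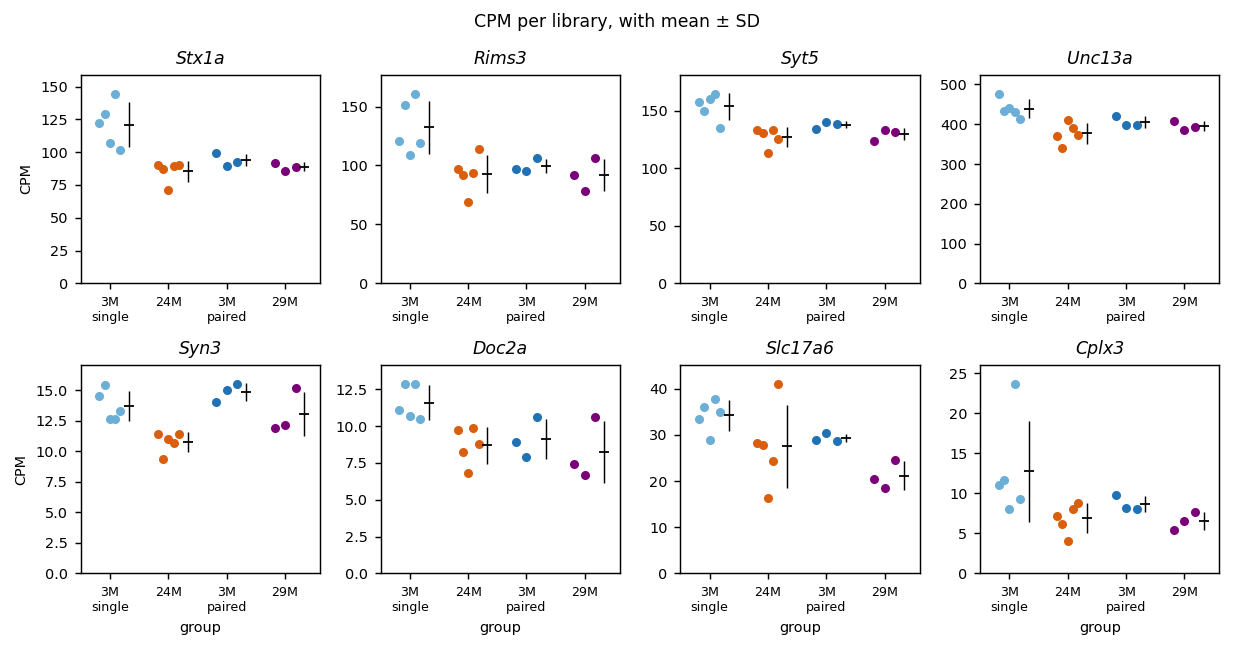
CPM per library for 8 genes, with the mean ± SD of each group beside the points (24M replicates 1 and 4 as 1 point). Stx1a, Syt5, Unc13a, Syn3 and Doc2a at 24M lie wholly below the 3M single-end points, Slc17a6 and Cplx3 at 29M below the 3M paired-end points, and Cplx3 has 1 high 3M single-end point.

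At the active zone, 6 of 9 genes were below 0 at 24M and 5 of 9 at 29M, and 2 passed, both at 24M. Rims3 (chromosome 4, 120854816 to 120896579, plus strand) measured 121, 151, 109, 161 and 119 CPM at 3M and 96.6, 91.5, 68.8, 93.3 and 114 CPM at 24M. The highest 24M sample lay above the lowest 3M library, so the groups overlapped. The log2 fold change was -0.52 ± 0.13 with an adjusted p of 0.035 by edgeR's quasi-likelihood test, Benjamini-Hochberg adjusted. In the 11 fits with a library left out it passed in 6. Its adjusted p was 0.058, 0.065 and 0.07 when 3M single-end replicate 1, 2 or 4 was left out, and 0.092 and 0.056 when 24M replicate 2 or 3 was. Its highest 3M value and lowest 24M value were again in 3M single-end replicate 4 and 24M replicate 3. Without both its change was -0.34 with an adjusted p of 0.099, and leaving out such extreme values shrinks a change by itself. In the paired-end libraries Rims3 measured 96.8, 94.9 and 106 CPM at 3M and 91.7, 78.7 and 106 CPM at 29M, a change of -0.10 ± 0.08 (adjusted p 0.57). The long RIM scaffolds Rims1 and Rims2, which hold the vesicle, Munc13 and calcium channels together, had changes of 0.05 and -0.02 at 24M and 0.07 and 0.11 at 29M.

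Unc13a codes for Munc13-1, the main priming factor of glutamatergic synapses. Unc13a (chromosome 8, 71624417 to 71671757, minus strand) measured 477, 432, 441, 430.5 and 414 CPM at 3M and 370.1, 339.9, 412, 391 and 374 CPM at 24M. The groups did not overlap, by a narrow margin between the lowest 3M library and the highest 24M sample. The change was -0.22 ± 0.06 with an adjusted p of 0.039 by edgeR's quasi-likelihood test, Benjamini-Hochberg adjusted. At 29M Unc13a measured 408, 386 and 392 CPM against 422, 398 and 397 CPM, a change of -0.04 ± 0.04 (adjusted p 0.69), and the difference between the ages had an unadjusted p of 0.039. Its paralog Unc13b had changes of -0.09 and 0.09. Unc13c, the third of the family, had changes of -0.26 ± 0.16 at 24M and -0.30 ± 0.09 at 29M, where 27.1, 22.4 and 27.7 CPM lay below 34.6, 29.8 and 30.9 CPM (adjusted p 0.089). The giant scaffold genes Bsn and Pclo had changes between -0.05 and 0.06 over both ages, and Erc2 (ELKS2) of 0.15 ± 0.05 and -0.06 ± 0.04 at 24M and 29M (adjusted p 0.10 and 0.52).

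Rab3 proteins are small GTPases of the vesicle, and rabphilin (Rph3a) is their effector. None of these 4 genes passed at either age by edgeR's quasi-likelihood test, Benjamini-Hochberg adjusted. Rph3a measured 436, 411, 356, 450.0 and 419.9 CPM at 3M and 367, 339.8, 370.1, 364 and 359 CPM at 24M, a change of -0.20 ± 0.06 (adjusted p 0.056), with 1 low 3M library inside the 24M range. At 29M its change was 0.08 ± 0.05. Rab3c measured 616, 674, 754, 552 and 627 CPM at 3M and 765, 751, 749.9, 697 and 739 CPM at 24M, a change of 0.20 ± 0.07 (adjusted p 0.093), and its change was -0.12 ± 0.06 at 29M (adjusted p 0.30). Rab3a, the most abundant of the family per length, had changes of -0.09 and -0.02, and Rab3b of -0.14 and -0.14. Of the endocytosis genes, dynamin 1 (Dnm1) had changes of -0.10 and 0.01, Amph of -0.04 and -0.06 and the clathrin adaptor gene Snap91 (AP180) of 0.04 and -0.08, none past the test.

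Some members had opposite signs at the 2 ages. Age and library type vary together between the comparisons, so these signs cannot tell whether age had the same effect in both. At an unadjusted p under 0.05 the effects differed for 8 of 49 members (Synpr, Rph3a, Stx1a, Rab3c, Erc2, Syt4, Unc13a and Napb), beside 10.4% of all 16055 genes, and for 0 after adjustment by edgeR or by DESeq2. For Synpr, Rab3c, Erc2 and Syt4 the change was above 0 at 24M and below 0 at 29M, and for Rph3a the reverse held. Picking genes by a small p of the difference favours opposite signs, and members not picked, such as Syn2 and Unc13b, also had them. With offsets for GC content and length Syt4 was at -0.004 at 24M and -0.08 at 29M, so that its signs no longer differed.

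The changes at 24M varied with the GC content of the transcripts. Over the 49 members Spearman's rho between log2 fold change and exonic GC content was -0.59 at 24M and 0.07 at 29M, beside -0.46 and 0.11 over all genes with a known GC content. These are correlations across genes of the same libraries and carry no p. Of the 24 members with GC content from 52.0% to 61.8%, 23 were below 0 at 24M. Of all 6096 tested genes in that range 71.6% were below 0 and 3.89% were lower by adjusted p. Among these 24 members were 5 of the 6 that passed, all of them lower. Of the 25 members from 40.7% to 51.6%, 15 were above 0 at 24M, and 37.3% of all 8099 tested genes in that range were below 0. Syn3 was the 1 member that passed from this part, beside 1.20% of the genes in that range lower by adjusted p. With offsets for GC content and length in each library, 307 of all 15526 genes tested were lower at 24M by adjusted p and 350 higher. Of the 49 members 4 passed, all lower, by edgeR's quasi-likelihood test, Benjamini-Hochberg adjusted. They were Stx1a (log2 fold change -0.42, adjusted p 0.0061), Rims3 (-0.46, adjusted p 0.044), Syn3 (-0.35, adjusted p 0.026) and Syt5 (-0.20, adjusted p 0.027), and 0 were beyond the fold threshold. Unc13a had -0.13 (adjusted p 0.13) and Doc2a -0.29 (adjusted p 0.10) with these offsets. Snap25 moved from 0.18 to 0.01, Synpr from 0.25 to 0.09 and Rab3c from 0.20 to 0.04. The sign turned for 11 members at 24M, among them Syt4 from 0.21 to -0.004 and Syt1 from 0.09 to -0.01. The rho of the members became -0.22. Slc17a6 at 29M was -0.49 with an adjusted p of 0.0093.

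**Figure D4:**
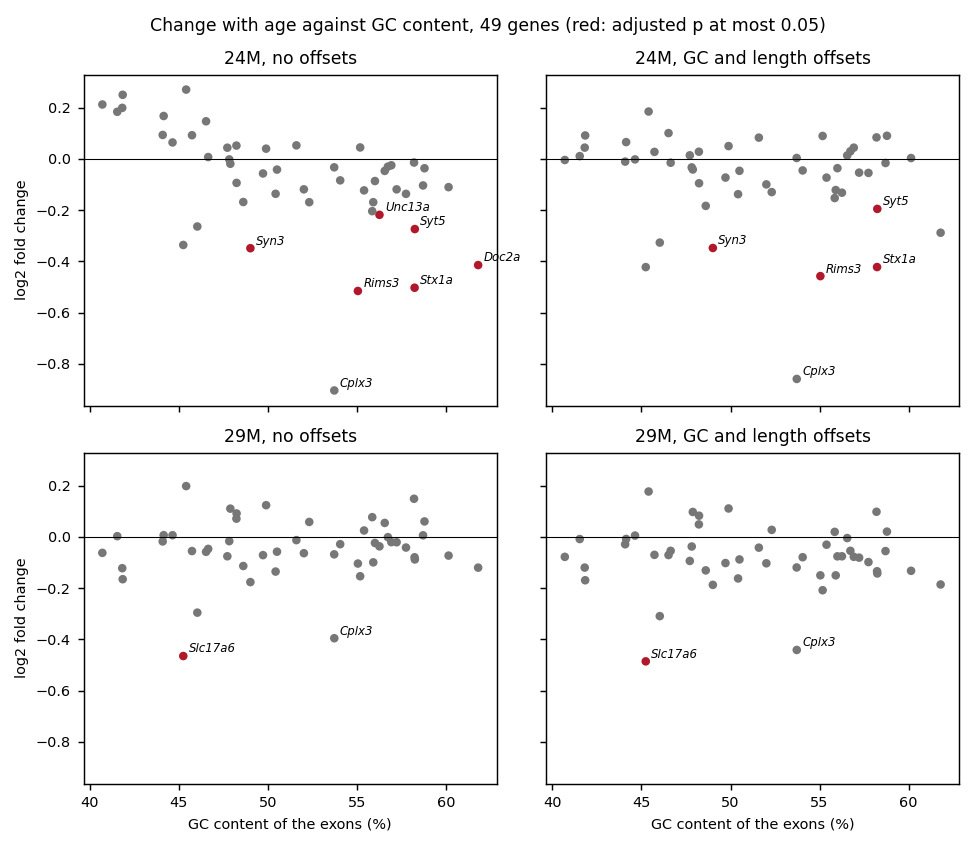
Log2 fold change of the 49 genes against exonic GC content (%), at 24M (top) and 29M (bottom), without offsets (left) and with GC and length offsets (right); red points passed by adjusted p. At 24M without offsets the points slope down from left to right (rho -0.59), and with offsets less so (rho -0.22).

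Other genes of the pathway, a list of 62 of which 61 were tested, gave 0 calls at either age by edgeR or by DESeq2. By adjusted p alone in edgeR's quasi-likelihood test, Benjamini-Hochberg adjusted, 1 was higher and 1 lower at 24M, and 1 lower at 29M. By adjusted p alone in DESeq2, 3 were higher (Sypl, Napg and Picalm) and 1 lower (Rims4) at 24M, and 0 passed at 29M, where Lin7a had an adjusted p of 0.16. At an unadjusted p under 0.05 in edgeR, 8 were higher and 9 lower at 24M, beside the 13.96% and 12.1% of all genes given above, and 3 were higher and 8 lower at 29M, beside 9.86% and 7.48%. Rims4, a short RIM like Rims3, measured 81.8, 71.4, 77.9, 85.6 and 65.4 CPM at 3M and 57.7, 62.7, 50.3, 65.5 and 64.7 CPM at 24M, a log2 fold change of -0.35 ± 0.09 (adjusted p 0.034). Sypl, a synaptophysin-like protein that is also found outside neurons, measured 41.7, 50.4, 41.5, 52.8 and 59.6 CPM at 3M and 68.1, 74.6, 65.5, 54.2 and 66.0 CPM at 24M, a change of 0.42 ± 0.10 (adjusted p 0.038). Lin7a, an adaptor that links the active zone scaffold Cask to other proteins, measured 63.0, 66.8 and 66.5 CPM at 3M and 55.8, 57.4 and 57.0 CPM at 29M, a change of -0.21 ± 0.05 (adjusted p 0.049). Rims4 overlapped between 24M and 3M by 1 sample and Sypl likewise, while Lin7a did not overlap at 29M. Next by p, without passing in edgeR, were Napg (0.18) and Picalm (0.22) at 24M, and Dnm2 (0.21), Rab27b (-0.21) and Cask (-0.19) at 29M. The median log2 fold change of the list was -0.03 at both ages.

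Single libraries moved the counts at 24M. The 6 members lower by adjusted p became 1 on leaving out 3M single-end replicate 1 or 24M replicate 2, and 2 on leaving out 3M single-end replicate 2, the same group's replicate 4, or 24M replicate 6. They became 3 without 24M replicate 3 and 10 without 3M single-end replicate 5. Stx1a was among the members passing in every one of these fits, Rims3 and Syt5 in 6 of 11, Syn3 and Unc13a in 5 and Doc2a in 3.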

How the data were processed

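Per the labels and the study's methods, polyA RNA of hippocampus was made into TruSeq libraries, aligned to GRCm38.p2 with STAR 2.3.0 and counted per gene with HTSeq, and the authors deposited raw counts without normalization. Whether the counting used strand, and the annotation, are not given in the sources used here. Reads without a feature (8.59% to 15.9% of a library) stayed out of library sizes and tests. The members and all lists were chosen with earlier results of these data known.

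The test within each library type was the quasi-likelihood test of edgeR 4.0.16 under R 4.3.3, after its default filter and TMM normalization, with Benjamini-Hochberg adjustment over all genes tested, 15683 at 24M and 15097 at 29M. Standard errors were taken as the size of the log2 fold change over the square root of F. The difference between ages was tested in 1 fit of 4 groups. The steps were tested on simulated data. CPM use TMM-scaled totals, and lengths, GC content and coordinates are from GENCODE on GRCm38. The labels do not say whether each library came from its own mouse, so p-values measure only the spread between these samples, which may be technical.

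Members were named in full when called, when among the 12 smallest p of a comparison or the 2 smallest p of the difference, and paralogs were given beside them. Of the other pathway genes the 4 smallest p per comparison were named. Alternatives were DESeq2 1.42.0, its size factors, no filter, at least 1 CPM, all groups in 1 fit, a replicate block, GC and length offsets (loess, span 0.3), both together, thinning to the smallest total, the 24M pair kept apart or left out, and each library left out. Leaving out 3M single-end replicate 4 and 24M replicate 3 together was chosen after seeing the data.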

Additional observations from a re-analysis of the deposited data

Results flagged for a closer look

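In 7 of the 98 groups of 5 samples examined (49 genes at 3M single-end and at 24M), 1 sample stood apart by Dixon's test, where chance gives about 4.9. The value given is the gap to the nearest other sample as a share of the group's range. In 3M single-end replicate 4, Cplx3 was high (23.7 CPM, 0.769), and Cplx2 (1806 CPM, 0.728) and Pclo (333 CPM, 0.753) were low. In 24M replicate 3, Stx1a was low (71.1 CPM, 0.857), and Unc13b (54.0 CPM, 0.726) and Slc17a8 (8.97 CPM, 0.833) were high. In 24M replicate 6, Snap91 was high (481 CPM, 0.759). Thus 6 of the 7 were in the replicates that stood highest and lowest for the layer 6b and neocortex markers, 341 CPM in 3M single-end replicate 4 and 185 CPM in 24M replicate 3. The part of this in the values was not tested.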

How the results depend on the processing

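The median log2 fold change of the members kept its sign at both ages under all alternatives run (-0.079 to -0.025 at 24M, -0.077 to -0.0083 at 29M), and 0 members were called higher in any. The 2 members called lower at 24M became 1 with the replicate block, 1 with the replicate block and GC and length offsets together, 0 with those offsets alone, 1 with 24M replicates 1 and 4 left out, and 0 without both 3M single-end replicate 4 and 24M replicate 3. They ranged from 0 to 3 with single libraries left out. The 6 lower by adjusted p at 24M became 1 with the replicate block (Rims3, while the Stx1a log2 fold change at 24M was -0.447 with an adjusted p of 0.061 by edgeR), 3 with the replicate block and offsets, 3 after thinning, 1 without 24M replicates 1 and 4 and 2 without both libraries named above, and ranged from 1 to 10 with single libraries left out. Those 6 became 7 with DESeq2, and 8 with no filter, with all 4 groups in 1 fit or with the 24M libraries kept apart. Members higher by adjusted p at 24M, 0 in the main test, were 1 with DESeq2, 3 with all 4 groups in 1 fit and 2 with the 24M libraries kept apart, and ranged from 0 to 2 with single libraries left out. At 29M the 1 lower by adjusted p became 5 (and 1 higher) with no filter, 0 with all 4 groups in 1 fit, 2 with the replicate block and 3 with the replicate block and offsets. It ranged from 0 to 1 with single libraries left out, and the 0 called lower from 0 to 1. The cause of these moves was not tested.

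Sample numbers were not shown to pair the libraries, since the correlations of same-numbered deviations ranged from -0.14 to 0.097. With offsets the sign turned for 11 of 49 members at 24M, of which 2 (Syt1 and Syt4) had an unadjusted p under 0.05 without them, and for 5 at 29M. At 24M, Syt7 was 0.084 with offsets, 0.081 with the replicate block and offsets, 0.011 without replicates 1 and 4, and -0.074 to 0.021 with single libraries left out. With the replicate block and offsets Rab3c was -0.0014 and Snap91 -0.015. Rims2 was 0.0032 with the 24M libraries kept apart, 0.021 without both named libraries and -0.051 to 0.0022 with single libraries left out. Doc2b was -0.052 without both, and -0.010 to 0.14 with single libraries left out. At 29M, Napb was -0.0077 with offsets, -0.0060 with the replicate block and offsets and -0.025 to 0.035 with single libraries left out, and Doc2a -0.37 to 0.00013. Counts were lowest for Slc17a8, Cplx3, Doc2a, Sv2c and Syn3, each with a mean under 15 CPM in both single-end groups. Their standard errors were 0.085 to 0.28 at 24M, beside 0.17 for Slc17a6 and 0.16 for Unc13c.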
